A study of Rattus norvegicus with 2 samples.

Results

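The 8 red cell genes other than globins were followed in rat cervical lymph nodes: the heme synthesis gene Alas2, the globin chaperone gene Ahsp, the membrane genes Slc4a1 and Epb42, the transcription factor genes Klf1 and Gata1, the glycolytic side-branch gene Bpgm and the transferrin receptor gene Tfrc. They were chosen by name, as 8 of the 36174 genes named on the array, and all their probes were used, 9 of 45598. Each of the 8 accessions given with the probes matched an entry of the same symbol in the RefSeq genes of GRCr8. The RNA came from male Sprague-Dawley rats aged 10 to 12 weeks, either not stressed (C group) or restrained (RS30 group), with 1 Cy3-labeled array for each. The labels give no restraint time, and the 30 min used here is that of the study's methods. How many rats stood behind each RNA is not stated in the sources used here, the nodes were measured whole, and the labels name no difference in strain, allele or drug. All rats were killed under halothane and pentobarbital, and the methods describe perfusion for the histology rats but not for the nodes used for RNA. With 1 array per group, the spread between rats was not measured, no p-value was computed, and a difference separates these 2 RNAs rather than the conditions.

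A red cell precursor makes heme in its mitochondria, starting with the enzyme ALAS2, and pairs it with globin chains that AHSP keeps soluble. GATA1 and KLF1 switch these genes on, while the transferrin receptor brings in iron and band 3 (Slc4a1) and protein 4.2 (Epb42) build the membrane. The precursor then expels its nucleus, and the reticulocyte that leaves the marrow carries leftover globin and other late messages but no nucleus from which to make more. In bulk RNA, more cells of a type and more RNA per cell cannot be told apart.

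The probes that carried the main difference and those that did not are shown first, as the files give them and in the sense of the messenger, with no base singled out. Alas2 and Ahsp were 2-fold or more higher on the RS30 array, and Klf1 and Gata1 encode the regulators measured beside them. Ahsp is shown by its first 30 bases.
Alas2: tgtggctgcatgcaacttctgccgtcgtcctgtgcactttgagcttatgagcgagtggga
Ahsp: atgccttagaaccccaaactcttggctctg
Klf1: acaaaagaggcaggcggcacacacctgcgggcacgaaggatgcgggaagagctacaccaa
Gata1: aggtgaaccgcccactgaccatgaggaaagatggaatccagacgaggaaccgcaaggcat

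Probe positions follow the files, which name rn4 as their build in the header. Alas2 was read at chrX:39810353-39810412 and Ahsp at chr1:187561567-187561626, both on the forward strand. Klf1 was read at chr19:24908511-24908570 on the reverse strand. The 60 bases of the Gata1 probe were placed over 504 bases, chrX:26570758-26571261 on the forward strand, so that its match is split on the genome. The files do not state the exon or the untranslated part a probe lies in.

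Of the 8 genes, 2 were higher on the RS30 array by 2-fold or more and none was lower by that much. The 6 genes that passed the background limit of the scanner software (well above background) on 1 array or both gave a share of 33.3%, against 3.46% of the 21096 genes that passed the same filter (730 genes). Genes 2-fold or more lower made up 4.28% of those 21096. By probe, 2 of the 7 that passed (28.6%) were 2-fold or more higher, against 3.3% of all probes that passed. The median log2 difference was 0.30 over the 6 genes and 0.016 over all genes that passed. A gene that passes on its brighter array alone is bound to lean that way, and these counts describe the 6 genes and not all 8. The genes were also chosen with earlier results of these data known, so the shares are a description and no test.

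Alas2, the erythroid form of the first enzyme of heme synthesis, showed an intensity of 25.67 on the C array against 174.0 on the RS30 array. The RS30 array was the higher, by 2.86 ± 0.24 on the log2 scale (7.26-fold; the error is that of the spots and covers no rats). This difference ranked 40 among 19214 genes measured well above background on both arrays. Ahsp, whose product binds free alpha globin chains, read 17.94 on the C array against 45.0 on the RS30 array. The RS30 array was again the higher, by 1.42 ± 0.27 on the log2 scale (2.69-fold), which ranked 243. These differences were 11.7 and 5.37 times their spot errors. Both genes were read by 1 spot on each array, so neither was repeated within an array.

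**Figure D1:**
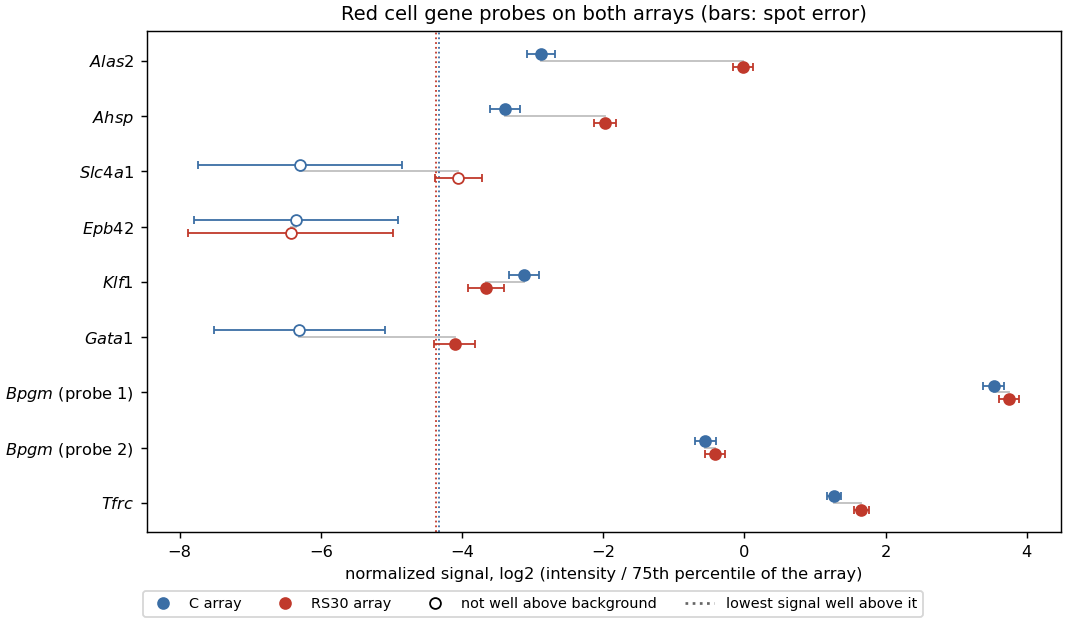
Normalized signal of the 9 probes on the C array and the RS30 array, as log2 of the intensity over the 75th percentile of the array, with bars for the spot error and dotted lines at the lowest signal that was well above background on each array. Alas2 moved from -2.88 to -0.02 and Ahsp from -3.40 to -1.97, while the probes of Bpgm and Tfrc lay close together on both arrays and open circles stand for signals not well above background.

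The membrane genes gave no level on which a difference could rest. Slc4a1, which encodes the anion exchanger band 3, read 2.398 on the C array against 10.62 on the RS30 array and was not well above background on either. By a separate flag of the scanner software, the Slc4a1 signal was positive and significant on the RS30 array but not on the C array. Its raw spot signals were 38.05 and 44.17 over a local background of 23 on both arrays, and its probe holds a run of 6 alternating A and G bases. Epb42, which encodes protein 4.2, read 2.31 and 2.045 and was also not well above background on either array. The 2 arrays cannot give the level of these messages under the background limit.

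The regulator genes gave signals near background. Gata1, the factor that opens the erythroid program, passed the background limit on the RS30 array only, with intensities of 2.383 (C) and 10.24 (RS30). Set against the lowest signal well above background on the C array, 9.452, its bound was 1.16-fold higher in RS30. On the log2 scale this is 0.21, smaller than the error of its single RS30 spot, 0.29, so no difference rests on it. Slc4a1 read 10.62 on the same array and did not pass the limit. Klf1, which activates the adult beta globin gene among others, read 21.66 on the C array against 13.92 on the RS30 array. It was therefore lower on the RS30 array, by -0.54 ± 0.33 on the log2 scale, which is under 2-fold and 1.62 times its spot error. Among probes spotted 10 times on the RS30 array, those with intensities from 8 to 16 had a median SD of 0.284 (log2) between spots, so that a single spot of Klf1 or Gata1 carries a wide error.

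Tfrc, through which cells take up iron bound to transferrin, was measured in 2 spots per array. Its intensities were 460.2 and 449.4 on the C array against 545.5 and 567.9 on the RS30 array. All spots of the RS30 array lay above those of the C array, and the difference was 0.39 ± 0.14 on the log2 scale (1.31-fold). Dividing cells of many kinds carry this receptor. Like Tfrc, none of 20 cell division genes listed beside it reached 2-fold in either direction. The log2 differences of these 20 genes ran from -0.41 (Mcm3) to 0.36 (Mcm4), and their median was 0.19. Of the 20, 18 lay above 0, while Mcm3 and Rrm2 (-0.08) lay below. Whether the difference of Tfrc went with cell division was not tested. Bpgm makes 2,3-bisphosphoglycerate, which lowers the oxygen affinity of hemoglobin. Its brighter probe read 2179 and 2366 on the C and RS30 arrays and its dimmer probe 128.7 and 132.1. Both were slightly higher on the RS30 array, by 0.22 ± 0.20 and 0.14 ± 0.21, differences close to or under the spot error.

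**Figure D2:**
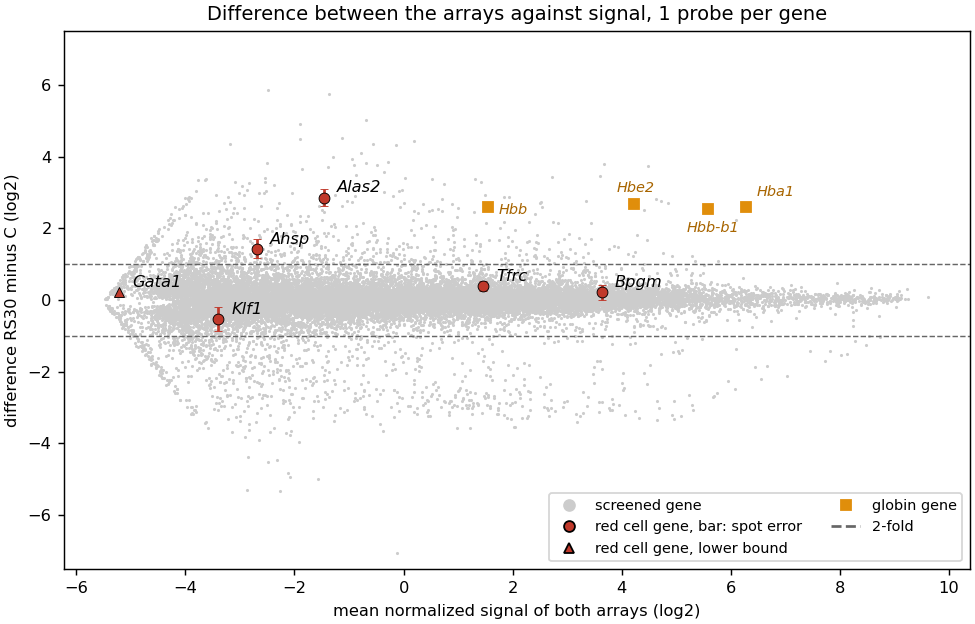
Log2 difference between the RS30 and C arrays against the mean normalized signal of both arrays (log2), for 1 probe of each screened gene (grey), the red cell genes (red, with the spot error; the triangle for Gata1 is a lower bound) and 4 globin genes (orange). Alas2 at 2.86 lay level with the globins, Ahsp at 1.42 lay above the 2-fold line, and Tfrc, Bpgm, Gata1 and Klf1 lay between the 2-fold lines.

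How often a gene differed by 2-fold depended on its signal. Among the screened genes in the dimmest of 4 equal groups, which held Ahsp, Klf1 and Gata1, 6.2% were 2-fold or more higher and 7.64% lower. In the next group, which held Alas2, these shares were 3.79% and 4.25%. In the brightest, which held Bpgm, they were 1.52% and 2.26%.

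Alas2 differed by about as much as the 4 globin genes that were higher on the RS30 array, while the differences of Ahsp, Tfrc, Bpgm and Klf1 lay below that of Hba1. No such comparison was made for Gata1, which has only a bound, or for Slc4a1 and Epb42, which were not well above background. Hba1, which encodes alpha globin, read 5953.3 on the C array against 33804.7 on the RS30 array, a difference of 2.60 ± 0.07 (log2, 8 spots per array). The beta-like globins Hbb, Hbb-b1 and Hbe2 were higher on the RS30 array by 2.61, 2.55 and 2.67. The beta-like globin genes resemble each other in sequence, and whether their probes share signal was not tested. The difference of Alas2 exceeded that of Hba1 by 0.26 ± 0.25, which is 1.01 times the spot error. That of Ahsp was below that of Hba1 by -1.18 ± 0.27, and below that of Alas2 by -1.43 ± 0.36. Those of Tfrc, Bpgm and Klf1 were below that of Hba1 by -2.21 ± 0.16, -2.39 ± 0.22 and -3.14 ± 0.34. These errors cover the spots only.

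The other listed globin genes gave signals near background. Hbe1 read 24.05 on the C array against 1.931 on the RS30 array, the second of which did not pass the background limit. Hbg1 read 13.11 and 8.855 and passed that limit in C only, and Hbz was not well above it on either. Of the 7 listed globin genes named on the array, 4 were 2-fold or more higher and 1, Hbe1, was 2-fold or more lower.

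The other listed erythroid and iron genes, on lists that leave out the 8 genes, were mostly within 2-fold. Of 89 listed erythroid and iron genes that passed the filter, 5 were 2-fold or more higher, 4 of them globins. Without globins, 1 of 83 (1.2%) was 2-fold or more higher, 1 was 2-fold or more lower, and the median log2 difference was 0.043. That share lies below the 3.46% of all genes that passed, but the 2 sets were not matched for signal. The lists hold genes not confined to red cells and bright ones, such as Fth1 (39591.3 on the C array) and Prdx2 (5932.0). In the brightest of the 4 signal groups, 1.52% of genes were 2-fold or more higher. The share therefore does not show how genes confined to red cells behaved.

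In heme synthesis, none of 14 genes reached 2-fold and the median log2 difference was 0.0066, a value whose sign changed with the scaling. Alas1, which encodes the form of the first enzyme found in all cells, read 2028.4 on the C array against 1692.9 on the RS30 array (-0.16 ± 0.20), while Alas2 read higher on the RS30 array. Fech, whose product inserts the iron into heme, read 243.9 and 258.7 (0.18 ± 0.20). Alas1 and Fech were named after their values had been seen. Urod, a middle enzyme of the pathway and the brightest of these probes, differed by 0.09.

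Among 20 listed membrane and cytoskeleton genes, 12 passed the filter and their median log2 difference was 0.22. Ank1 and Epb4.1, which anchor the membrane skeleton and are not confined to red cells, differed by 0.34 and 0.14. Rhag and Kel, which encode blood group proteins of the red cell surface, were among the 8 genes not well above background on either array.

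Of 19 red cell enzyme and maturation genes that passed, none was 2-fold or more higher. Prdx2, whose product protects red cells from peroxide, differed by -0.04, and Bnip3l, which drives the removal of mitochondria, by 0.21.

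Of 18 further erythroid regulators that passed, none reached 2-fold and the median log2 difference was -0.21. Epor, the erythropoietin receptor gene, read 221.5 on the C array against 124.2 on the RS30 array (-0.74 ± 0.21). Tal1, a partner of GATA1, read 40.2 and 46.02 (0.29 ± 0.23). Gfi1b, Nfe2, Sox6, Hemgn and Gata2 stayed under the background limit on both arrays. E2f2 and Lyl1, the brightest of the list, differed by -0.41 and -0.33.

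Of 10 early progenitor genes, 5 passed and none reached 2-fold. Kit, the stem cell factor receptor gene, read 435.3 and 435.7 on the C and RS30 arrays (0.10 ± 0.20). Gata2 and Cd34 were not well above background on either, and no probe bore the name Myb. Among 18 iron genes none reached 2-fold, and the ferritin genes Fth1 and Ftl1 differed by 0.05 and 0.07.

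**Figure D3:**
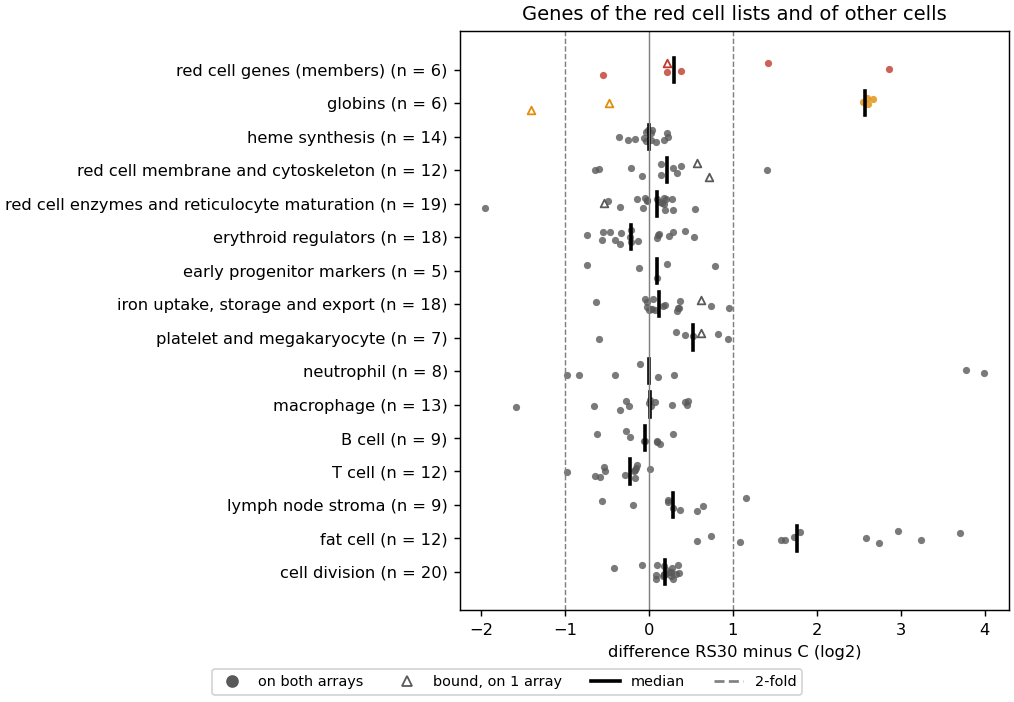
Log2 difference between the RS30 and C arrays for every gene that passed the filter, by list, with n the number of genes, black bars at the medians, open triangles for bounds and dashed lines at 2-fold. The medians were 2.58 for globins, 0.30 for the red cell genes, 0.0066 for heme synthesis, -0.21 for erythroid regulators and 1.77 for fat cell genes.

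Genes of other cells also differed between the arrays, and their part in the result was not tested. Of 12 fat cell genes that passed, 10 were 2-fold or more higher on the RS30 array. Their summed intensity on the 14 genes of the list was 10068.2 on the C array against 24046.2 on the RS30 array, and Plin1 and Pck1 were not well above background on either. Adipoq, Lep and Plin4 differed by 2.74, 3.24 and 3.71, beside 2.86 for Alas2 and 2.60 for Hba1.

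Neutrophil genes were uneven. S100a8 and S100a9, which encode calprotectin, read 19.3 and 36.29 on the C array against 286.5 and 464.2 on the RS30 array, while the other 6 of 8 that passed were within 2-fold. The summed intensity of the neutrophil list was 297.1 and 928.4. Its granule genes were split, and Elane, Mpo, Camp and Ngp stayed under the background limit in C and in RS30. The granule genes Ltf, Lcn2, Mmp8 and Mmp9 passed that limit in both. In C and RS30, Ltf read 31.5 and 15.01, Lcn2 14.61 and 16.86, Mmp8 31.99 and 22.56, and Mmp9 44.98 and 39.06. Of the platelet list 7 of 12 genes passed, none reached 2-fold, and its sum was 905 and 1146.5, with Ppbp, Gp1ba and Gp5 not well above background. Pf4, a platelet chemokine gene, read 132.5 and 238.2.

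The lymph node itself was visible on both arrays. All 9 B cell genes and all 12 T cell genes were well above background, with medians of -0.05 and -0.23 and none at 2-fold. Of these, 4 B cell genes but only 1 T cell gene were higher on the RS30 array, and the lowest T cell difference was -0.97 (Cd5). Of 13 macrophage genes only Cd5l reached 2-fold, lower on the RS30 array (169.5 and 53.11), and of 9 stroma genes only Pdpn did, higher (684.1 and 1426.8).

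The promoters of 6 of the 8 genes were in the RefSeq table of the GRCr8 assembly, those of Ahsp and Slc4a1 not among them. The 250 bases before the start were searched on both strands for AGATAA, with T also allowed in its first place and G in its last, letters that GATA factors bind, and for CACCC, letters that KLF1 binds. Of 33469 promoters, 27.0% held the first and 49.2% the second. Among the 6 genes, 3 held each. The windows around the GATA letters are shown with those letters in capitals. Of these, 1 belongs to the gene with the largest difference and the others to genes that did not differ by 2-fold or were not well above background.
Alas2: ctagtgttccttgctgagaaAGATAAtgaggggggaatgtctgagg
Epb42: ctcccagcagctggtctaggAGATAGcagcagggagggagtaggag
Klf1: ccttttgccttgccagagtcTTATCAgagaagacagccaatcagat

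These windows lie at chrX:22895294-22895339, forward strand, for Alas2, at chr3:128451740-128451785, reverse strand, for Epb42 and at chr19:40158652-40158697, reverse strand, for Klf1. Their letters begin 136, 82 and 26 bases before the start, and in Klf1 they are TGATAA read on the opposite strand. CACCC was found in the promoters of Klf1, Gata1 and Tfrc, and that of Bpgm held neither. A match is a description of letters and not a site in use, and the arrays measured no binding.

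**Figure D4:**
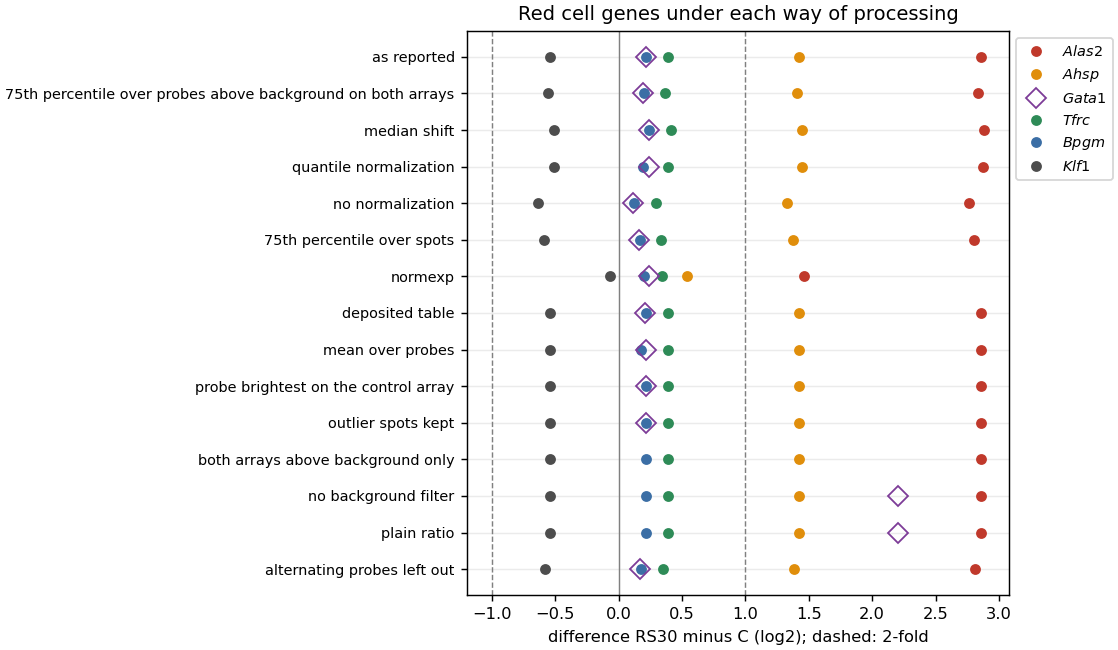
Log2 difference between the RS30 and C arrays for the 6 red cell genes that passed, as reported (top) and under 14 other ways of processing, with dashed lines at 2-fold; the diamond for Gata1 is a lower bound except with no background filter and in the plain ratio. Alas2 stayed above 2-fold at 1.47 to 2.88 in all 14, Ahsp fell to 0.54 with the normexp correction, and Klf1 stayed below 0.

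The background correction set the size of the differences of the dim genes. With the normexp correction of limma, which adds an offset of 50 and so pulls dim probes together, Alas2 was higher on the RS30 array by 1.47 and Ahsp by 0.54 (log2), so that Ahsp no longer reached 2-fold. Klf1 was then lower by -0.07. Hba1, which is bright, kept a difference between 2.51 and 2.63 over the 14 alternatives, so the near equality of Alas2 with Hba1 did not hold under this correction.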

How the data were processed

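Spot intensity values of 2 arrays (SurePrint G3 Rat GE 8X60K) were deposited by the authors, who extracted them with Feature Extraction 11.5.1.1 subtracting background but leaving the arrays unscaled to each other. A second file that the authors deposited holds 1 log2 value for each probe and array, and 100% of these lay within 0.1 of log2 intensity minus the 75th percentile computed here. No control probe or flagged outlier spot was used (489 outlier spots in C, 660 in RS30). Spots of the same probe were averaged as log2 intensity, and the array's 75th percentile over probes (an intensity of 188.9 in C and 176.4 in RS30) was subtracted. Each gene was read from its brightest probe over both arrays and screened if well above background on at least 1 array (21096 genes). Where it was so on 1 array only, the difference is a bound, taken on the dim array from whichever was higher, the dim signal or the lowest signal there that passed the background limit (9.452 in C, 8.521 in RS30). By the file headers the arrays shared a slide and a scan, so neither separates the groups. A 2-fold difference was counted, as in the study's methods. The errors come from the scanner software and cover the spots.

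All genes and lists were chosen with earlier results of these data known. Named were the 8 genes and, in each list, up to 6 genes past 2-fold and the 2 brightest others, from which the report gives a selection (some listed genes are not reported here), and always Kit, Gata2, Myb, Tal1, Epor and Cd34. The 14 alternatives changed 1 choice at a time: 5 of scaling, the normexp correction, the deposited table, 2 of the probe of a gene, outlier spots kept, 2 of the background filter, the plain ratio for a bound, and probes of alternating A and G left out. Of the probes, 54.7% in C and 54.9% in RS30 were well above background, and the single array per group limits the precision. The steps were tested on simulated arrays. R 4.3.3, limma 3.58.1, Python 3.11.15, numpy 2.4.6, pandas 2.3.3 and matplotlib 3.10.9 were used.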

Additional observations from a re-analysis of the deposited data

How the results depend on the processing

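Under 14 alternatives, Alas2, Ahsp, Tfrc and Bpgm were higher and Klf1 lower on the RS30 array each time. Gata1 had a value in 13 of them, but its direction was not checked by these. Except with no background filter and in the plain ratio, its value was a bound, and a bound below 0 was left out. Those 2 settings used its C signal, which was not well above background. Of the 8 genes, 2 were 2-fold or more higher as reported. With normexp 1 was, and 1 of their probes, beside 1.11% of all genes that passed. With no background filter 4 genes and 4 probes were, the added ones being Slc4a1 and Gata1, beside 5.61% of all 36174 genes. Listed erythroid and iron genes then numbered 8 in place of 5. With the plain ratio in place of a bound these counts were 3 genes, 3 probes and 7 listed genes, beside 4.84% of all genes that passed. Listed genes numbered 4 with normexp and 4 with the probe brightest on the control array. The median over the genes was 0.91 with no background filter and 0.91 with the plain ratio, against 0.30. Gata1 was at 2.20 in both. Over all genes, 730 of 21096 (3.46%) were 2-fold or more higher and 903 lower as reported. These were 234 and 378 of 21099 with normexp and 2031 and 2148 of 36174 with no background filter. They were 1020 and 1146 of 21096 with the plain ratio, and 674 and 541 of 20252 without probes of alternating A and G. The list medians of heme synthesis, macrophage and neutrophil genes were near 0 and changed sign with the scaling. The arrays limit what can be said of genes near background. No paired analysis was possible because there is only 1 array on each side.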
